A study of Mus musculus with 9 samples.

Results

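Back skin RNA of male BALB/c mice aged 6 to 8 weeks was sequenced in a control group, an IMQ group and a LYS group, with 3 libraries per group. The genes described here are 38 skeletal muscle genes listed by symbol for the panniculus carnosus, the muscle layer of mouse skin, and 37 of them were found among the 29205 genes of the table. Tnnc2, which encodes fast troponin C, is not analysed here. The control group received neither treatment. The IMQ group received 62.5 mg of imiquimod cream (5%) daily on the back for 5 days, and imiquimod is a Toll-like receptor agonist whose cream gives psoriasis-like lesions in mouse skin. The LYS group received the same cream and also Longkui Yinxiao soup (LYS), a Chinese herbal decoction, by gavage, at the higher of the doses used in the study according to its methods. All 3 groups were shaved and depilated, and back skin was collected on day 13. How much of the muscle layer each skin sample held is not given in the sources used here, nor is it stated that each library came from a separate mouse, so p-values measure the spread between these samples.

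The panniculus carnosus is a thin sheet of skeletal muscle beneath the dermis and fat that moves the skin of rodents. In its fibres, myosin heads of the thick filament pull on actin of the thin filament, and troponin and tropomyosin open the thin filament when calcium leaves the sarcoplasmic reticulum. Fast and slow fibres build this machinery from different genes for the myosin heavy and light chains, the troponins and myosin-binding protein C. Fast fibres draw on creatine phosphate and glycogen, and slow fibres rely more on oxidative metabolism.

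The counts summed over genes ranged from 14658645 to 19609878 per library. The muscle genes took 2.08% to 2.18% of the counts in the control libraries, 0.302% to 0.951% in the IMQ libraries and 0.815% to 1.81% in the LYS libraries. Their summed level in CPM (counts scaled to library size by TMM) was 56.4%, 47.9% and 20.3% of the control mean in IMQ 1, IMQ 2 and IMQ 3. It was 45.3%, 67.2% and 89.5% of the control mean in LYS 1, LYS 2 and LYS 3. Thus every IMQ library lay below every control library, IMQ 3 held the least muscle RNA, and LYS 1 lay below IMQ 1 and IMQ 2. The tissue label was checked with markers of other muscle types. The 7 cardiac genes summed to 3.77 to 12.6 CPM per library, with Myh6 and Nppa at most 0.149 CPM, Nppb up to 5.79 CPM and Myl4 up to 4.69 CPM. The smooth muscle markers summed to 595 to 633 CPM in the control libraries. In bulk skin, fewer muscle fibres, less muscle RNA per fibre and a larger share of RNA from other tissue cannot be told apart.

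**Figure D1:**
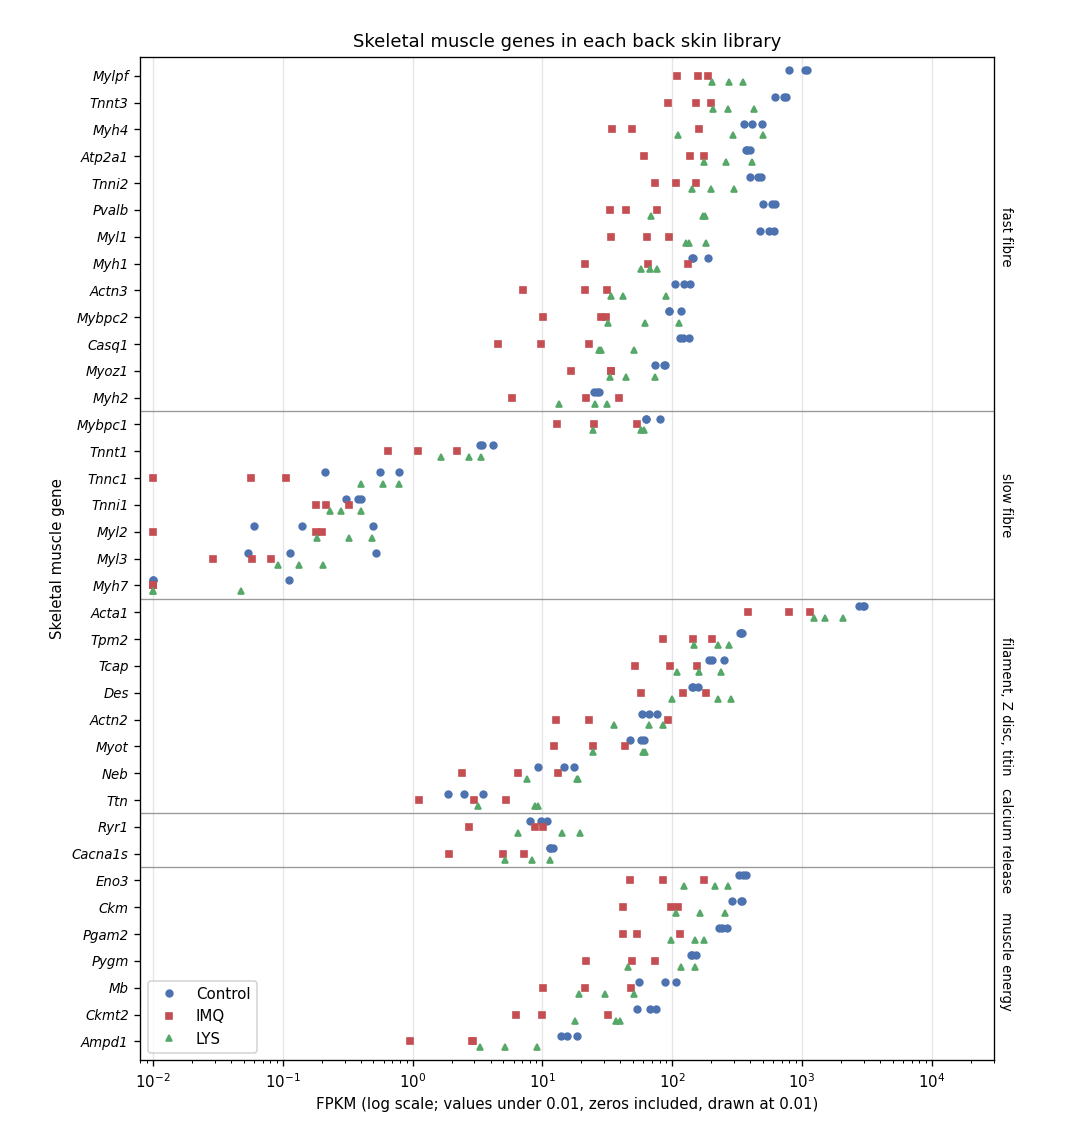
FPKM (log axis) of the 37 skeletal muscle genes, grouped by role, with a point for each of the 9 libraries (control, IMQ and LYS, 3 each) and values under 0.01 drawn at 0.01. Most fast fibre, filament and energy genes lay above 10 FPKM in the control libraries, while 5 slow fibre genes lay below 1 FPKM in every library.

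Levels of different genes were compared in FPKM, which divides counts by gene length. Acta1, the skeletal actin of the thin filament, was the most abundant muscle gene, with 2910 ± 128 FPKM in the control group (SD, n = 3), against 777 ± 380 under IMQ and 1597 ± 421 under LYS. The summed FPKM of the 13 fast fibre genes was 5044, 4762 and 4192 in the control libraries, 1187, 1048 and 504 in the IMQ libraries, and 1437, 1673 and 2796 in the LYS libraries. The summed FPKM of the 7 slow fibre genes was 67.2, 69.1 and 84.8 in the control libraries, and nearly all of it was Mybpc1. Without Mybpc1, the slow genes summed to 4.22, 6.49 and 4.32 FPKM in the control libraries, 2.93, 1.30 and 1.15 in the IMQ libraries, and 4.38, 2.68 and 4.83 in the LYS libraries. The slow genes other than Mybpc1 therefore made up at most 0.304% of the level of the fast genes and the slow genes without Mybpc1 together in any library.

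Against the control group, 21 of the 33 muscle genes tested fell in the IMQ group and 0 rose. A call needed an adjusted p below 0.05 in edgeR's quasi-likelihood test together with a log2 fold change beyond 0.58 in either direction. Of all 15976 genes tested, 26.9% fell and 24.1% rose by the same rule. At an unadjusted p under 0.05, 22 muscle genes were lower and 0 higher. The share of all genes lower at that threshold was not computed and is at least 26.9%. The median log2 fold change of the muscle genes was -1.19, beside -0.06 over all genes tested. By CPM, 22 of the 37 muscle genes lay below the control range in every IMQ library, as did 35.9% of all genes tested, and 0 lay above it. By role, 11 of 13 fast fibre genes, all 7 energy genes, 2 of 8 filament and Z disc genes, 1 of 3 tested slow fibre genes and 0 of 2 calcium release genes fell. Leaving out IMQ 1 raised the number that fell to 29, and the other fits with 5 libraries gave 16 to 20. Without IMQ 3, Myh2 and Ttn rose. Of the 21 genes, 14 were called in each of these 6 fits. The shares of all genes called in these fits are not given here.

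The fast myosin light chains and the fast troponins fell together. Mylpf (ENSMUSG00000030672, chr7:127208890-127214298 on GRCm38, as are all coordinates here), the regulatory light chain of fast myosin, had 1010, 1017 and 706 CPM in the control libraries, 221, 213 and 144 in the IMQ libraries, and 301, 204 and 343 in the LYS libraries. Every control library lay above every treated library, and LYS 2 lay below IMQ 1 and IMQ 2. Its log2 fold change was -2.25 (standard error, SE, 0.23 and, by edgeR, adjusted p = 1.2e-04) between the IMQ and control groups. Myl1 (ENSMUSG00000061816, chr1:66924295-66945404), the essential light chain of fast myosin, had 1105, 1042 and 827 CPM in the control libraries, 216, 167 and 87.6 in the IMQ libraries, and 288, 249 and 346 in the LYS libraries. Here the 3 groups did not overlap, with the LYS libraries between the others. The log2 fold change of Myl1 was -2.67 (SE 0.32 and, by edgeR, adjusted p = 2.7e-04) for IMQ against control. Tnnt3 (ENSMUSG00000061723, chr7:142498836-142516009), fast troponin T, which ties troponin to tropomyosin, had 1001, 1078 and 824 CPM in the control libraries, 346, 305 and 182 in the IMQ libraries, and 333, 404 and 614 in the LYS libraries. Tnni2 (ENSMUSG00000031097, chr7:142441808-142444410), fast troponin I, which blocks the thin filament at rest, had 604, 654 and 499 CPM in the control libraries, 252, 202 and 136 in the IMQ libraries, and 219, 281 and 408 in the LYS libraries. Both troponin genes lay lower in every treated library than in every control library, and the IMQ and LYS ranges overlapped. Their log2 fold changes for IMQ against control were -1.81 (SE 0.25 and, by edgeR, adjusted p = 5.3e-04) for Tnnt3 and -1.58 (SE 0.23 and, by edgeR, adjusted p = 7.2e-04) for Tnni2. Tnnt3 overlaps Prr33 on the other strand, where up to 337 counts were assigned in a library. Whether counting used the strand is not given in the sources used here.

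Calcium-binding genes of fast fibres had the largest falls among the 33 listed muscle genes tested. Pvalb (ENSMUSG00000005716, chr15:78191114-78206400), the cytosolic calcium buffer parvalbumin, had 570, 554 and 434 CPM in the control libraries, 49.7, 101 and 42.8 in the IMQ libraries, and 184, 67.2 and 169 in the LYS libraries. All treated libraries lay below the control libraries, and LYS 2 lay within the IMQ range. Its log2 fold change was -3.02 (SE 0.33 and, by edgeR, adjusted p = 1.6e-04) for IMQ against control, an 8.12-fold lower level. Casq1 (ENSMUSG00000007122, chr1:172209894-172219868), the fast calsequestrin that stores calcium in the sarcoplasmic reticulum, had 230, 213 and 188 CPM in the control libraries, 49.0, 24.2 and 11.1 in the IMQ libraries, and 56.7, 50.8 and 89.7 in the LYS libraries. As for Myl1, the groups did not overlap and the LYS libraries lay between the others. Casq1 had a log2 fold change of -2.90 (SE 0.46 and, by edgeR, adjusted p = 9.9e-04), a 7.48-fold lower level. Casq2, the calsequestrin of slow and cardiac muscle, is not a listed gene and also fell. It had 23.0, 20.3 and 28.5 CPM in the control libraries and 4.49, 2.68 and 1.905 in the IMQ libraries. Its log2 fold change was -2.97 (edgeR adjusted p = 1.3e-04), and -2.47 (edgeR adjusted p = 0.00115) for LYS against control. The fall was thus not limited to the fast form. Atp2a1, the calcium pump SERCA1 of fast fibres, had a log2 fold change of -1.19 (SE 0.32 and, by edgeR, adjusted p = 0.0128), and it overlaps Rabep2 on the other strand. Actn3, the fast fibre alpha-actinin of the Z disc, fell with a log2 fold change of -2.17, as did Mybpc2, fast myosin-binding protein C, with -1.70, and Myoz1, a Z disc protein of fast fibres, with -1.12.

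The fast myosin heavy chains did not move alike. Myh4 (ENSMUSG00000057003, chr11:67238029-67260446), the IIb heavy chain of the fastest fibres, had 2609, 1953 and 2087 CPM in the control libraries, 322, 1227 and 254 in the IMQ libraries, and 687, 1690 and 2760 in the LYS libraries. It fell under IMQ, the log2 fold change being -1.90 (SE 0.56 and, by edgeR, adjusted p = 0.0181), and LYS 3 was the highest of all 9 libraries. Myh1 (ENSMUSG00000056328, chr11:67200052-67224575), the IIx heavy chain, had 798, 828 and 1009 CPM in the control libraries, 922, 520 and 169 in the IMQ libraries, and 436, 348 and 444 in the LYS libraries. IMQ 1 lay within the control range for Myh1, while all LYS libraries lay below it. Myh2 (ENSMUSG00000033196, chr11:67171027-67197517), the IIa heavy chain of fast oxidative fibres, had 165, 175 and 150 CPM in the control libraries, 306, 195 and 51.6 in the IMQ libraries, and 98.1, 173 and 205 in the LYS libraries. The groups overlapped for Myh2, and its log2 fold change for IMQ against control, 0.17 (SE 0.51 and, by edgeR, adjusted p = 0.789), was negative without scaling beyond library totals and with the replicate block. As a share of the summed FPKM of Myh4, Myh1, Myh2 and the slow chain Myh7, Myh4 made up 74.5%, 67.7% and 65.9% in the control libraries, 22.2%, 65.1% and 55.6% in the IMQ libraries, and 58.1%, 78.1% and 82.3% in the LYS libraries. Myh2 made up 4.36% ± 0.659 in the control group (SD, n = 3), against 12.0% ± 5.02 under IMQ and 6.29% ± 0.989 under LYS, and each treated library had a higher share than each control library. The Myh4 share was lowest in IMQ 1, and the other IMQ libraries also lay just under or below the control range. Myh4, Myh1 and Myh2 are neighbours with similar coding sequence, so the split of reads among them may be uncertain, which was not tested.

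**Figure D2:**
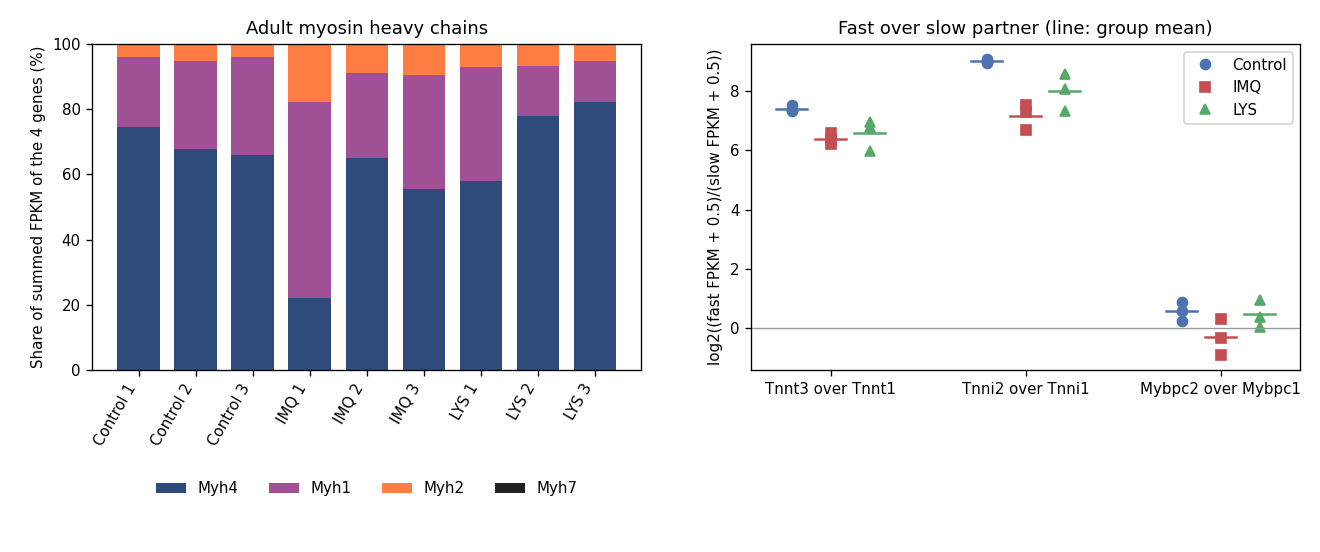
Left, share (%) of Myh4, Myh1, Myh2 and Myh7 in their summed FPKM in each of the 9 libraries. Right, log2 ratio of fast over slow partner (FPKM plus 0.5) in each library, with lines at the group means. IMQ 1 stands apart by its Myh4 share of 22.2%, and the Tnni2 over Tnni1 ratios of the IMQ libraries lie below those of the control libraries, with Tnni1 itself at or under 0.5 FPKM in every library.

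The slow genes were set against their fast partners within each library, as log2 ratios of FPKM with 0.5 added to both values. Of 7 partner pairs, 6 could be formed, and the mean log2 ratio of fast over slow was 7.77 ± 0.241 in the control group (SD, n = 3), against 5.82 ± 0.468 under IMQ and 6.70 ± 0.508 under LYS. The values in the libraries were 8.03, 7.56 and 7.72 in the control group, 5.82, 6.29 and 5.35 under IMQ, and 6.21, 6.67 and 7.22 under LYS. This score largely follows the level of the fast genes, because the slow partner lay at or under the added 0.5 FPKM in all 9 libraries for Myh7, Myl2 and Tnni1 and in 8 for Myl3, so that the amount of muscle RNA does not cancel. The IMQ mean minus the control mean was -2.58 for Myh4 over Myh7, -2.85 for Myl1 over Myl3, -2.51 for Mylpf over Myl2 and -1.84 for Tnni2 over Tnni1. It was smaller where the slow partner exceeded 0.5 FPKM in every library, at -1.03 for Tnnt3 over Tnnt1 and -0.88 for Mybpc2 over Mybpc1. No test was made of this score because its genes were chosen with results of these data known. Myh7, the slow heavy chain, had 1, 19 and 0 counts in the control libraries, 0, 0 and 0 in the IMQ libraries, and 6, 0 and 0 in the LYS libraries. Myl3 and Myl2, the light chains of slow and cardiac myosin, did not exceed 21 counts in any library, and Tnnc1, slow troponin C, did not exceed 16. For Myh7, Myl3, Myl2 and Tnnc1 the highest control count was in control 2. Myl3 overlaps Pth1r and Tnnc1 overlaps Nisch on the other strand. These 4 genes were not tested for IMQ against control because their counts were too low.

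The slow genes Tnnt1 and Mybpc1 had more reads and allowed a closer comparison with their partners. Tnni1 lay at or under the added 0.5 FPKM in all 9 libraries. Tnnt1, slow troponin T, had 6.57, 8.36 and 6.04 CPM in the control libraries, 5.35, 3.05 and 1.76 in the IMQ libraries, and 6.14, 3.45 and 6.71 in the LYS libraries. It fell under IMQ, the log2 fold change being -1.04 (SE 0.37 and, by edgeR, adjusted p = 0.0408), a call that was lost when any library except IMQ 1 was left out. The FPKM of Tnnt3 was 180 to 212 times that of Tnnt1 in the control libraries, 90.1 to 144 times in the IMQ libraries and 75.6 to 163 times in the LYS libraries. Tnni1, slow troponin I, had 1.26, 1.25 and 0.925 CPM in the control libraries, 1.28, 0.819 and 0.952 in the IMQ libraries, and 1.47, 0.791 and 0.917 in the LYS libraries. The groups overlapped, and its log2 fold change was -0.17 (SE 0.34 and, by edgeR, adjusted p = 0.694). The FPKM of Tnni2 was 1157 to 1297 times that of Tnni1 in the control libraries, 343 to 592 times in the IMQ libraries and 360 to 1068 times in the LYS libraries. Tnni1 had 11 to 27 counts in a library, so each of its values carries a large counting error. Mybpc1, the slow-type myosin-binding protein C, had 250, 257 and 304 CPM in the control libraries, 265, 143 and 72.4 in the IMQ libraries, and 114, 260 and 238 in the LYS libraries. Its log2 fold change of -0.76 (SE 0.40 and, by edgeR, adjusted p = 0.13) did not pass the threshold. Mybpc2 had 367, 307 and 286 CPM in the control libraries, 111, 140 and 45.6 in the IMQ libraries, and 119, 211 and 370 in the LYS libraries. The ratio of Mybpc2 to Mybpc1 in FPKM was 1.18 to 1.84 in the control libraries, 0.526 to 1.23 in the IMQ libraries and 1.02 to 1.95 in the LYS libraries, so the ranges of all 3 groups overlapped. Mybpc1 had 62.6 to 80.4 FPKM in the control libraries. Myh7, Myl2, Myl3, Tnni1 and Tnnc1 did not exceed 0.787 FPKM in any library. The level of Mybpc1 thus did not go with these slow genes, and whether it marks slow fibres here was not tested.

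**Figure D3:**
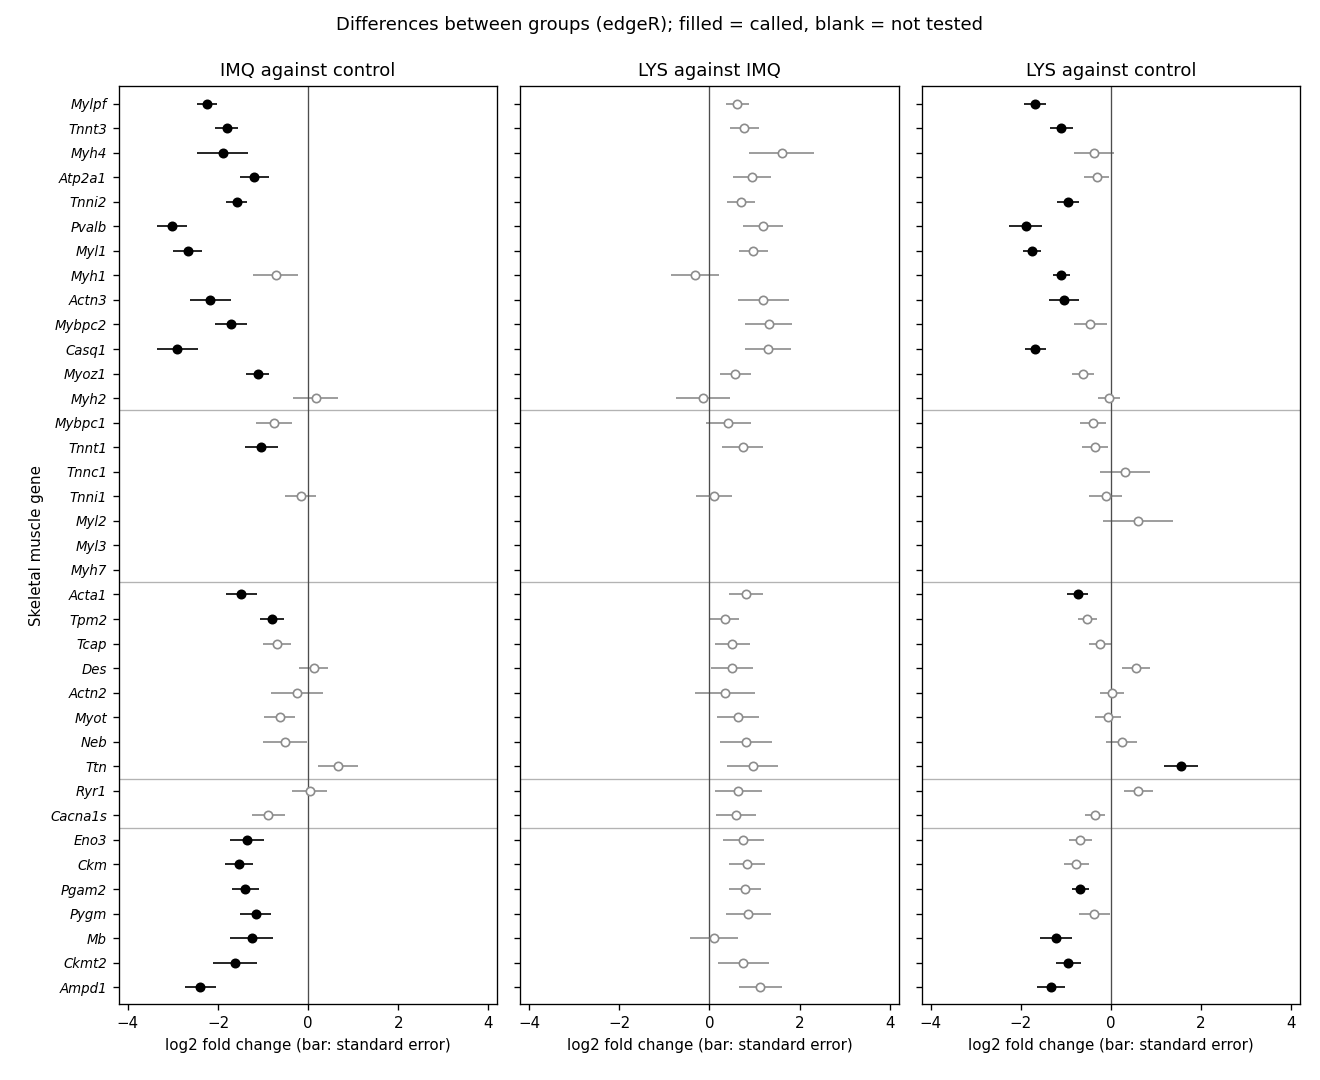
Log2 fold change (x axis, bars are the standard error) of each muscle gene in the 3 comparisons of groups with 3 libraries each, with filled points for genes called by edgeR and no point where a gene was not tested. For LYS against IMQ, 31 of 33 points lie above 0 and none is filled.

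The actin, titin and Z disc genes of both fibre types divided by their size of change. Acta1 (ENSMUSG00000031972, chr8:123891769-123894751) had 3719, 4106 and 3865 CPM in the control libraries, 1921, 1555 and 734 in the IMQ libraries, and 1944, 2171 and 2881 in the LYS libraries. The groups did not overlap, and Acta1 had a log2 fold change of -1.48 (SE 0.34 and, by edgeR, adjusted p = 0.00636) for IMQ against control. Tpm2, a tropomyosin of the thin filament, had 862, 917 and 805 CPM in the control libraries, 649, 538 and 306 in the IMQ libraries, and 440, 624 and 726 in the LYS libraries. It fell by 0.80 on the log2 scale for IMQ against control (edgeR adjusted p = 0.0287). Tcap, the telethonin that caps titin at the Z disc, had 161, 217 and 160 CPM in the control libraries, 160.0, 115 and 61.2 in the IMQ libraries, and 105, 144 and 205 in the LYS libraries. Its log2 fold change of -0.68 did not pass the threshold (edgeR adjusted p = 0.0910). Ttn (ENSMUSG00000051747, chr2:76703980-76982547), titin, the elastic protein that spans from the Z disc to the M line, had 256, 199 and 345 CPM in the control libraries, 670, 440 and 162 in the IMQ libraries, and 386, 1037 and 934 in the LYS libraries. It was the lowest of all 9 libraries in IMQ 3 and above every control library in the other IMQ libraries, with a log2 fold change of 0.66 (SE 0.45 and, by edgeR, adjusted p = 0.234). Des, the intermediate filament protein desmin, which smooth muscle also makes, had a log2 fold change of 0.12, and those of Actn2, Myot and Neb were -0.26, -0.63 and -0.51, none of them past the threshold. The log2 fold change of Des was negative without scaling beyond library totals.

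The calcium release genes had no call in this comparison. Ryr1, the calcium release channel, had 186, 158 and 197 CPM in the control libraries, 243, 241 and 73.9 in the IMQ libraries, and 145, 294 and 385 in the LYS libraries. Cacna1s, the voltage sensor that opens it, had 68.9, 68.0 and 62.6 CPM in the control libraries, 51.9, 41.3 and 15.5 in the IMQ libraries, and 34.8, 52.0 and 68.5 in the LYS libraries. The log2 fold changes for IMQ against control were 0.03 (edgeR adjusted p = 0.944) for Ryr1, which was negative without scaling beyond library totals and with the replicate block, and -0.88 (edgeR adjusted p = 0.0632) for Cacna1s, whose IMQ libraries all lay below the control libraries.

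All 7 energy genes fell in the IMQ group. Eno3, the muscle enolase of glycolysis, had 532, 587 and 473 CPM in the control libraries, 335, 186 and 102 in the IMQ libraries, and 218, 353 and 425 in the LYS libraries. Ckm, the muscle creatine kinase, had 879, 889 and 707 CPM in the control libraries, 352, 359 and 151 in the IMQ libraries, and 321, 454 and 680 in the LYS libraries. Pgam2, the muscle phosphoglycerate mutase, had 179, 201 and 162 CPM in the control libraries, 105, 57.4 and 43.4 in the IMQ libraries, and 83.7, 119 and 136 in the LYS libraries. For these 3 glycolysis and creatine phosphate genes, all treated libraries lay below all control libraries. The log2 fold changes for IMQ against control were -1.36 for Eno3, -1.53 for Ckm and -1.40 for Pgam2. Ampd1, the AMP deaminase of muscle, had a log2 fold change of -2.39, Ckmt2, the mitochondrial creatine kinase, of -1.63, Pygm, the glycogen phosphorylase, of -1.16, and Mb, the oxygen store myoglobin, of -1.255. The call of Tpm2 was lost without any library other than control 3 and IMQ 1, and that of Myh4 without control 1. The calls of Mb and Ckmt2 were each lost when control 1, control 2 or IMQ 2 was left out, that of Mb also without IMQ 3, that of Eno3 without IMQ 2 and that of Pygm without control 1. Mb overlaps Apol6 on the other strand, which had up to 1598 counts in a library.

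Between the LYS and IMQ groups, 0 of 33 muscle genes were called by edgeR, as were 0% of all 15460 genes tested in the direction of higher levels. At an unadjusted p under 0.05, 6 muscle genes were higher and 0 lower, and 19.3% of all genes tested were higher. The median log2 fold change of the muscle genes was 0.75, beside 0.04 over all genes tested, and 31 of 33 values were above 0. By CPM, 4 of the 37 muscle genes lay above the IMQ range in every LYS library, as did 16.8% of all genes tested, and they were Acta1, Casq1, Myl1 and Tnnc1. The largest log2 fold changes were 1.60 for Myh4 (SE 0.73 and, by edgeR, adjusted p = 0.163), 1.32 for Mybpc2 (SE 0.52 and, by edgeR, adjusted p = 0.124) and 1.29 for Casq1 (SE 0.51 and, by edgeR, adjusted p = 0.124). Those of Myh1 and Myh2 were -0.33 and -0.14, and without scaling beyond library totals that of Myh2 was positive, as were both with limma on FPKM. With DESeq2 on the same libraries, Casq1, Mybpc2, Myl1 and Pvalb rose, 4 of 33, and 12.8% of all genes rose. When edgeR was fitted to the 9 libraries together, Tnnc1 rose, and 9.93% of all genes rose. Without IMQ 1, Casq1, Ckmt2 and Pgam2 rose, and without LYS 1 Mybpc2 rose. The shares of all genes that rose with a library left out are not given here. The median was 0.45 without IMQ 3 and 0.49 without LYS 3. The IMQ libraries are shared with the comparison of IMQ with control, so the opposite signs of both comparisons are not independent of each other.

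Between the LYS and control groups, 13 of 35 muscle genes were lower and 1 was higher by the same rule, beside 12.9% lower and 15.1% higher of all 16003 genes tested. The median log2 fold change of the muscle genes was -0.46, beside -0.01 over all genes. By CPM, 16 of 37 muscle genes lay below the control range in every LYS library and 1 above it, as did 25.3% and 25.0% of all genes tested. The genes that were lower comprised 8 of 13 fast fibre genes, 4 of 7 energy genes and Acta1, and 0 of 5 tested slow fibre genes. The largest falls were in Pvalb (log2 fold change -1.89, edgeR adjusted p = 0.00824), Myl1 (-1.75, 0.00130), Mylpf (-1.68, 0.00327) and Casq1 (-1.67, 0.00230), and these 4 were called in every alternative tried. Myh1 fell by 1.10 on the log2 scale (SE 0.18 and, by edgeR, adjusted p = 0.00498), a call that was lost when the 9 libraries were fitted together (edgeR adjusted p = 0.0955). Myh4 had a log2 fold change of -0.37 (edgeR adjusted p = 0.549) and Myh2 of -0.04. Tnnt3 and Tnni2 fell, with log2 fold changes of -1.10 and -0.95, and Tnnt1 and Tnni1 had log2 fold changes of -0.36 and -0.12, which did not pass the threshold. Ttn rose, with a log2 fold change of 1.56 (SE 0.38 and, by edgeR, adjusted p = 0.0191), and it was not called without control 1, control 2 or LYS 2, nor with limma on FPKM (Ttn, LYS against control, limma adjusted p = 0.058 with a pseudocount of 1 and 0.0564 with 0.1). The number of genes that fell was 5 without control 1, 6 without control 2, 5 without LYS 2 and 7 when the 9 libraries were fitted together. The shares of all genes that fell in these fits are not given here. The control libraries are shared with the comparison of IMQ with control, so the genes below the control level in both treated groups are not counted together.

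Upstream sequences are shown for fast, energy and thin filament genes with a call in the IMQ group (Myl1, Mylpf, Casq1, Ckm and Acta1), for the slow gene Tnnt1, which also fell there, and for Ttn, which had no call there and had the highest log2 fold change of the muscle genes. The promoters were taken from RefSeq on GRCm38.p6, which listed 29 of the 37 genes, and the 250 bases before the listed start are shown. The windows are those of Myl1 (chr1:66945057-66945306, minus strand), Mylpf (chr7:127211358-127211607, plus strand), Casq1 (chr1:172219896-172220145, minus strand), Ckm (chr7:19410844-19411093, plus strand), Acta1 (chr8:123894776-123895025, minus strand), Tnnt1 (chr7:4515976-4516225, minus strand) and Ttn (chr2:76982548-76982797, minus strand). The windows of Myl1, Mylpf, Ckm and Tnnt1 lie inside the span of the gene, so their listed starts are internal to it. Capitals mark matches, on either strand, to the E box CANNTG bound by myogenic factors, to CATTCC of the MCAT element, to TATAAA, to the MEF2 site and to the CArG box of serum response factor, and CAGCTG is a form of the E box.
Myl1: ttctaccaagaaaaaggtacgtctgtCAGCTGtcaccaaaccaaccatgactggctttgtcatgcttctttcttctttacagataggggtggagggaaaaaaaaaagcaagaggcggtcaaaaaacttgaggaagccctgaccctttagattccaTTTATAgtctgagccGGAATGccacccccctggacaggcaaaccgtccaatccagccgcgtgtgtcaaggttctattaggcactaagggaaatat
Mylpf: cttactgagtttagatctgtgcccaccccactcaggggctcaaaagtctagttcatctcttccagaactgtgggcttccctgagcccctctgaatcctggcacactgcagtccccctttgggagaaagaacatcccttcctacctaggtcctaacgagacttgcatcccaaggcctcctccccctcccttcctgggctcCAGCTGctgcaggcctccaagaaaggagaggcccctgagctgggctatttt
Casq1: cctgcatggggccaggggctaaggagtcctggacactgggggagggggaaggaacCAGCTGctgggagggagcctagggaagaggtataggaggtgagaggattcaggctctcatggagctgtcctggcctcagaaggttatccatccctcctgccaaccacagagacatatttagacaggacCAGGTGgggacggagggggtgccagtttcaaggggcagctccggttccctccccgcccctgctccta
Ckm: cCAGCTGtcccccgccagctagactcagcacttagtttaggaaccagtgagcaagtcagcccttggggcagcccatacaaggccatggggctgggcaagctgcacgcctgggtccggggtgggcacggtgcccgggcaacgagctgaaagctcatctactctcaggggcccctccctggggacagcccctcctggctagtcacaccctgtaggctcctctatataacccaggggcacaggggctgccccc
Acta1: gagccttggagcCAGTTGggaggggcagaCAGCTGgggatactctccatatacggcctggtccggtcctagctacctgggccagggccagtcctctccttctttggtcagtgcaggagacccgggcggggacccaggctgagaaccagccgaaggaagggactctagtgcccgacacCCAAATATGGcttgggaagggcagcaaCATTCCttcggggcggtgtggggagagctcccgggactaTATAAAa
Tnnt1: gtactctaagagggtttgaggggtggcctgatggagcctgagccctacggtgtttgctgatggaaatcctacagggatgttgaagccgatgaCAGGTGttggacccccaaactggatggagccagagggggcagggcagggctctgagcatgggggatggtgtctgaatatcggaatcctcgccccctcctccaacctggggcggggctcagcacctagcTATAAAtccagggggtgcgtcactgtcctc
Ttn: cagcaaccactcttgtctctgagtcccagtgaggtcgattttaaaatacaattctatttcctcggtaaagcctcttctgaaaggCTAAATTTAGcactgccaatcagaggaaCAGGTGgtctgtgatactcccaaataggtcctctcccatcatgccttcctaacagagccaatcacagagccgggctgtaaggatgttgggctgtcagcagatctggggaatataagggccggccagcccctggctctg
The letters CAGCTG stood in the Myl1, Mylpf, Casq1, Ckm and Acta1 windows and not in those of Tnnt1 and Ttn, which held another E box form. The MEF2 match was in the Ttn window and the CArG match in the Acta1 window. Among the 35 listed promoters of the 29 muscle genes, 54.3% held CAGCTG, beside 13.0% of all 32851 listed promoters. For CANNTG these shares were 88.6% and 66.2%, for CATTCC 28.6% and 12.6%, for TATAAA 17.1% and 12.4%, for the MEF2 site 2.9% and 0.5%, and for the CArG box 8.6% and 1.5%. A match is a description of the letters and not of binding in these samples, and a missing match says only that these letters are not in the window.

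Within the muscle genes, the log2 fold change was higher in longer genes. The Spearman rho between gene length and log2 fold change was 0.57 over 33 muscle genes for IMQ against control and 0.52 without Ttn, beside -0.06 over all genes tested and -0.02 over 110 genes of other muscle lists. It was 0.49 over 35 muscle genes for LYS against control and -0.08 over 33 for LYS against IMQ. These values are descriptions, since the genes share libraries. For IMQ against control, 11 of 12 genes shorter than 2 kb fell, with a median log2 fold change of -1.53. Of the 14 genes of 2 to 5 kb, 9 fell, with a median of -1.10, and of the 7 longer genes 1 fell, with a median of -0.51. Of all genes tested, 26.9% fell, and the share of all genes within each length class is not given here. The energy genes were all shorter than 5 kb, and Ttn, Neb and Ryr1 were the longest members, so role and length are tied in part in this list. The fast fibre genes ran from 1041 bases (Pvalb) to 7137 bases (Myh2). Change with length within a role was not tested. The part of RNA quality or length in the differences was not tested.

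**Figure D4:**
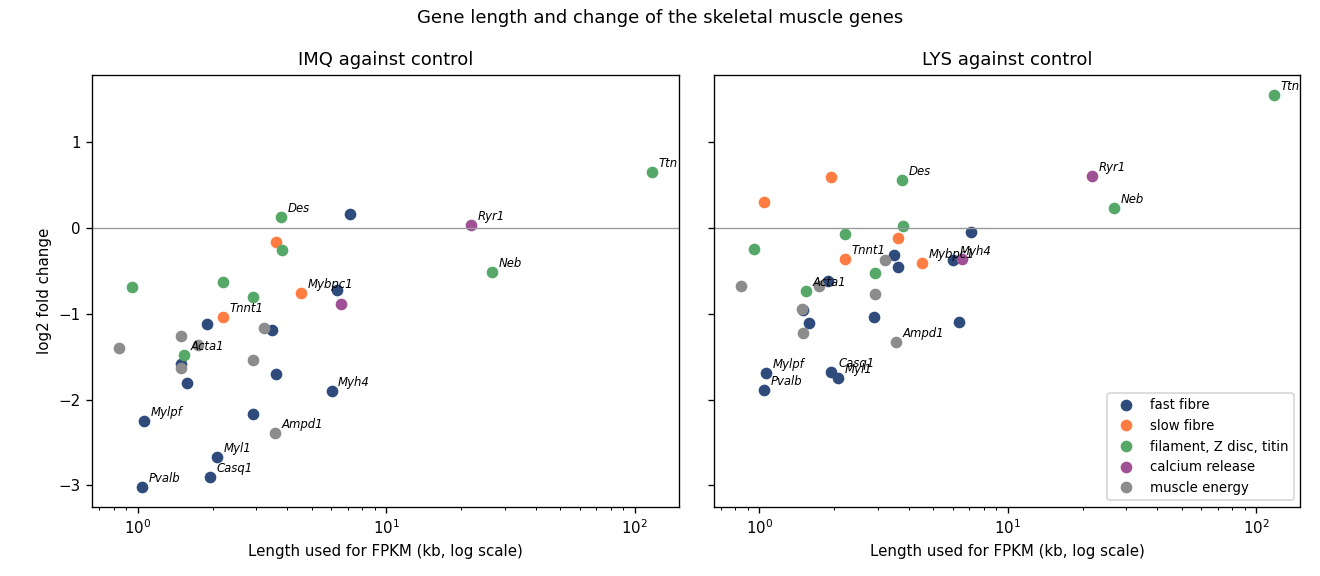
Log2 fold change of the muscle genes against the gene length used for FPKM (kb, log axis), coloured by role, for IMQ against control and LYS against control. Pvalb lies lowest and Ttn, the longest gene, lies highest in both panels.

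Relative to Acta1 in the same library, the muscle genes did not keep fixed proportions. On the scale of log2 FPKM ratios, the IMQ mean minus the control mean was 2.09 for Ttn, 1.59 for Des and 1.50 for Ryr1, with no overlap of the groups. These ratios were not tested. For Pvalb, Casq1 and Myl1 the difference was -1.51, -1.49 and -1.15, also without overlap. For Ckm and Tnni2 it was -0.03 and -0.02, with overlap. Of the 36 other muscle genes, 19 lay above and 4 below the control range of this ratio in every IMQ library, and 13 overlapped. Among the 19 are Myh7, Myl2, Myl3, Tnni1 and Tnnc1, which have libraries at or under the added 0.5 FPKM and whose ratio is therefore set mainly by Acta1. Without these 5 genes, 14 of 31 lay above, 4 below and 13 overlapped. The share of all genes above or below the control range of this ratio was not computed. Acta1 itself fell, with a log2 fold change of -1.48 beside a median of -0.06 over all genes tested. Any gene that fell less than Acta1 has a higher ratio, so the counts depend on the choice of Acta1. These ratios show unequal change among the genes and do not show which of them was constant.

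Other genes of muscle pathways, from lists that hold no member, were read from the same fits. For IMQ against control, 26.9% of all genes tested fell and 24.1% rose, and the counts of this comparison are to be read beside these shares. In it, 9 of 26 other sarcomere genes fell and 0 rose, with a median log2 fold change of -1.07. Of 17 other excitation and calcium genes 12 fell, including Srl, which encodes the sarcoplasmic reticulum protein sarcalumenin (189, 192 and 171 CPM in the control libraries, 89.6, 45.1 and 24.3 in the IMQ libraries). Its log2 fold change was -1.80 (edgeR adjusted p = 0.00539). Of 12 dystrophin complex genes 9 fell, and of 15 other energy genes 12 fell, among them Cox8b, a cytochrome oxidase subunit of muscle and brown fat, with a log2 fold change of -0.80. The neuromuscular junction list was divided, with 2 of 8 lower and 1 higher. Chrnb1, a subunit of the muscle acetylcholine receptor, fell with a log2 fold change of -1.73, and Lrp4, the agrin receptor, which skin cells other than muscle also express, rose with 1.07. Of 11 tested myogenic and satellite cell genes 5 fell, including Myf6, a myogenic factor of mature fibres, with a log2 fold change of -1.35. Of 13 atrophy and stress genes 6 fell and 2 rose, and of 8 embryonic and regeneration genes 3 fell and 1 rose. The embryonic heavy chain Myh3 did not exceed 2.65 CPM and the perinatal chain Myh8 did not exceed 9.08 CPM in any library. For LYS against IMQ, 0 genes of these lists were called by edgeR. For LYS against control, 4 of 26 other sarcomere genes and 5 of 12 dystrophin complex genes were lower and 0 higher. So were 3 of 15 other energy genes and 2 of 8 embryonic and regeneration genes, with 0 higher. Of 17 other excitation and calcium genes 4 were lower and 1 higher, and of 13 atrophy and stress genes 2 and 1. Of 11 myogenic genes 0 were lower and 2 higher. Of all genes tested, 12.9% were lower and 15.1% higher. For LYS against control, Sln, which encodes the SERCA inhibitor sarcolipin, had 5.80, 5.73 and 9.01 CPM in the control libraries, 6.74, 14.8 and 17.1 in the IMQ libraries, and 15.7, 22.6 and 26.5 in the LYS libraries, and was higher with a log2 fold change of 1.66 (edgeR adjusted p = 0.00417). Vgll2, a muscle transcription cofactor, was also higher, with a log2 fold change of 1.74 (edgeR adjusted p = 0.0131). Myog and Foxo3 rose as well, with log2 fold changes of 1.12 and 0.63.

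Across the 9 libraries, the genes outside all lists whose log2 CPM followed the mean of the muscle genes most closely were Enpp4, Trim32, Fxyd1, Fitm1, Srpk3, Map1a, Plcl1, H19, Aatk and Ntn4, with Pearson r from 0.98 to 0.99 among 14569 genes compared. Among the muscle genes themselves, the correlation with the mean of the others was 0.99 for Acta1, 0.98 for Ckm and 0.98 for Atp2a1, and 0.18 for Ttn, 0.16 for Tnni1 and 0.02 for Myl2. The points share libraries and scaling, and the values are descriptions.

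Markers of other cell types moved with the same groups. For IMQ against control, all 10 adipocyte genes fell (median log2 fold change -2.97), as did all 8 fibroblast and dermal matrix genes (median -2.05), all 5 endothelial genes (median -1.04), 7 of 9 smooth muscle genes (median -1.42) and 3 of 5 Schwann cell genes (median -1.05). All 8 epidermal genes rose (median 2.98). Of all genes tested in this comparison, 26.9% fell and 24.1% rose, so small counts in the short lists are to be read beside these shares. The summed epidermal markers ranged from 5807 to 9760 CPM in the control libraries, from 43880 to 65950 in the IMQ libraries and from 18430 to 34640 in the LYS libraries. Of 6 tested neutrophil and macrophage genes 3 rose and 1 fell, and their sum ranged from 934 to 1545 CPM in the control libraries, from 21870 to 29070 in the IMQ libraries and from 8599 to 18480 in the LYS libraries. Under IMQ this sum was mostly S100a8 (9979 to 13100 CPM) and S100a9 (10950 to 15110 CPM), which with Csf3r were the genes that rose, while Lyz2 fell, Adgre1 and Cd68 had log2 fold changes of -0.38 and -0.23 without a call, and Ly6g was too low to be tested. The summed adipocyte markers ranged from 5089 to 12670 CPM in the control libraries, 641 to 1678 in the IMQ libraries and 1679 to 3877 in the LYS libraries. Of the 3 tested genes of the brown adipocyte list 2 fell, while Ucp1 of that list did not exceed 0.185 CPM in any library and was not tested. Whether the list marks brown fat cells here was not tested. Of 4 tested cardiac genes Myl4 and Ryr2 fell and Nppb and Myl7 rose. The part of tissue composition in the muscle gene differences was not tested.

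**Figure D5:**
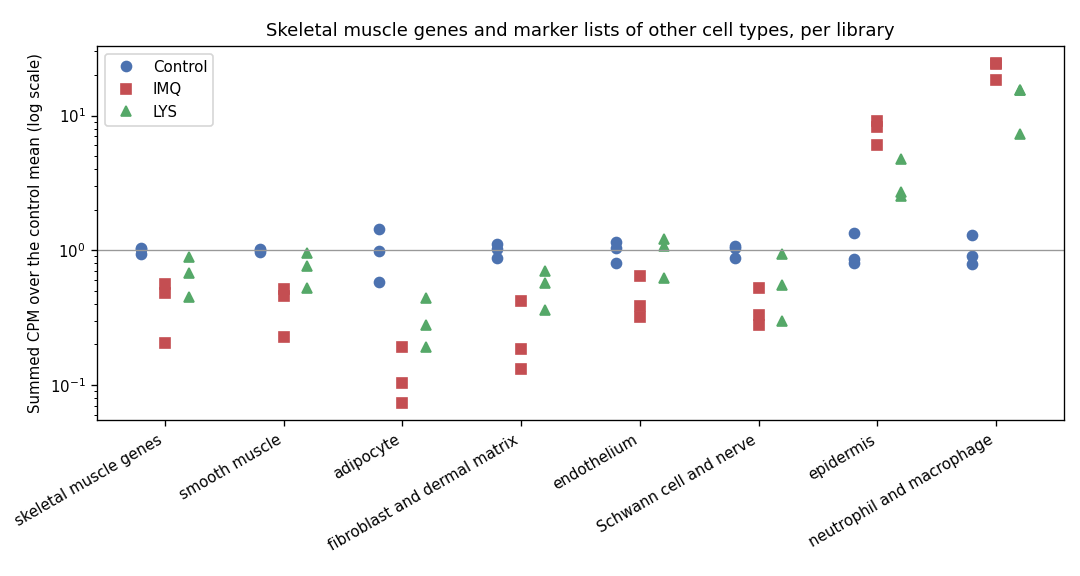
Summed CPM of the skeletal muscle genes and of marker lists of other cell types in each of the 9 libraries, divided by the control mean (log axis). The muscle genes, smooth muscle, adipocyte, dermal, endothelial and Schwann cell markers lie below the control mean in every IMQ library, and the epidermal markers and the neutrophil and macrophage sum, which is mostly S100a8 and S100a9 there, lie above it.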

How the data were processed

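Male BALB/c back skin (control, IMQ and LYS groups, 3 libraries each) was sequenced by the authors after TRIzol extraction and NEBNext Ultra library preparation. The submitters' processing notes name HISAT2, HTSeq 0.13.5 and GRCm38. The annotation used and the strand setting are not given in the sources used here. The authors deposited raw counts per gene, without normalization, and FPKM computed from them with a fixed length per gene, and both were used. Summed counts were 17149506 to 19609878 in the control group, 16915191 to 17988104 in the IMQ group and 14658645 to 16743869 in the LYS group. Counting error is therefore small for abundant genes and large for genes with few counts. Samples were grouped by their titles. Library pairs within a group differed beyond counting noise (chi-square over its degrees of freedom 16.9 to 100), so none was counted as a repeat.

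Each comparison was fitted on the whole table with edgeR 4.0.16 (R 4.3.3; TMM, filterByExpr, quasi-likelihood test, Benjamini-Hochberg adjustment over all genes tested) on the 6 libraries of its groups, and the muscle genes were read off. A call needed an adjusted p below 0.05 together with a log2 fold change beyond 0.58 in either direction. The fit was tested on simulated data. Log2 fold changes use TMM-scaled counts. Fast over slow ratios used log2(FPKM + 0.5) and no test, and correlations used log2(CPM + 1). Gene coordinates are those of GENCODE M21 (GRCm38). Alternatives were DESeq2 1.42.0, limma 3.58.1 on FPKM, other scaling, filters, libraries and thresholds, and a replicate block. Plots were made in Python 3.11.15 (matplotlib 3.10.9).

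The members and lists were chosen with earlier results of these data known. By the rule for naming genes, full values are given for fast and slow partners, Myh1, Myh2 and the 3 most abundant members of each other role. From each other list the 2 most abundant tested genes could be named, with the 10 genes most alike to the members. Pvalb, Casq1, Ttn, Sln, Vgll2, Myh3, Myh8, Myh6, Nppa, Myl7, Ryr2, Csf3r, Lyz2, Adgre1, Cd68 and Ly6g were named or given values after those had been seen. So were Casq2, Myog, Foxo3 and Ucp1. Tnnc2 is not analysed here.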

Additional observations from a re-analysis of the deposited data

How the results depend on the processing

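Without scaling beyond library totals the median of all genes moved from -0.06 to -0.51 for IMQ against control, from 0.04 to 0.29 for LYS against IMQ and from -0.01 to -0.15 for LYS against control (log2), and values under that scaling are to be read against these shifts. For IMQ against control, 16 to 29 muscle genes fell and 0 to 2 rose with single libraries left out, 20 to 26 fell under the other settings, and 14 of the 21 calls were kept in all 15 settings. For LYS against IMQ, 4 rose with DESeq2, 1 with the 9 libraries fitted together and 0 to 3 with single libraries left out. For LYS against control, 0 rose with limma on log2(FPKM + 1) and 0 with log2(FPKM + 0.1), and 0 to 3 rose and 5 to 19 fell with single libraries left out. The 9 libraries fitted together gave 7 that fell, and the replicate block 7. The median there ranged from -0.83 to -0.41 with single libraries left out. The value of fast minus slow fibre genes, IMQ against control, was -2.58 with the medians of the whole lists and -1.55 with CPM, and that of fast minus slow fibre genes, LYS against control, was -1.77 with those medians. The causes were not tested. Shares of all genes called are not given for the alternative settings, except DESeq2 and the 9 libraries together for LYS against IMQ.

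Directions that turned were of genes without a call. Without scaling beyond library totals, with limma at a pseudocount of 1 and with limma at 0.1, the log2 fold changes for IMQ against control were -0.30, -0.44 and -0.45 for Des, -0.40, -0.50 and -0.59 for Ryr1, and -0.24, -0.57 and -0.62 for Myh2. For LYS against IMQ they were 0.083, 0.34 and 0.37 for Myh2, and with limma 0.22 and 0.23 for Myh1. For LYS against control they were -0.10, -0.18 and -0.18 for Actn2. With the replicate block, the value was -0.12 for Ryr1 and -0.15 for Myh2 (IMQ against control), 0.093 for Myh2 (LYS against IMQ) and -0.0405 for Actn2, LYS against control. With single libraries left out, values for IMQ against control ranged from -0.19 to 0.46 for Des, -0.19 to 0.43 for Ryr1, -0.40 to 0.63 for Myh2 and -1.37 to 0.18 for Actn2. For LYS against IMQ they ranged from -0.29 to 0.76 for Mb, -0.18 to 0.30 for Tnni1, -0.58 to 0.45 for Myh2, -0.072 to 1.47 for Actn2 and -0.75 to 0.32 for Myh1. For LYS against control they ranged from -0.26 to 0.29 for Actn2, -0.26 to 0.22 for Myh2, -0.89 to 0.019 for Myh4, -0.24 to 0.23 for Myot, -0.071 to 0.77 for Tnnc1 and -0.41 to 0.062 for Tnni1.

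Libraries with the same number did not deviate together (r from -0.46 to 0.20 over the comparisons). The deviations were taken from means of 3 libraries, so these r cannot show whether equal numbers share a batch. The labels do not say whether they do. The replicate block gave 23 that fell for IMQ against control and 0 calls for LYS against IMQ. With 3 libraries per group an exact permutation test of a single value cannot go below p = 0.1. Slow genes with under 30 counts are limited by depth.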
